A study of Mus musculus with 15 samples.

Results

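The comparison covered whole micropunches of the dorsal hippocampal formation (dHF) from female mice that had been stressed after giving birth and from female mice that had never been bred. Its libraries were taken by their group labels. They were the 5 single-nucleus libraries labelled StressPP and the 6 labelled NP, that is 11 of the 15 libraries of the series, and the UMIs (unique molecular identifiers, each standing for 1 captured RNA molecule) of all barcodes of a library were summed to a single value per gene and mouse. The 4 ControlPP libraries, from mothers without the stress, are given as values only, and they entered the fit in a single alternative, where all 15 libraries shared 1 estimate of the spread. The study asked how reproductive experience reshapes the maternal brain for the long term, and whether stress in the postpartum period interferes with that.

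All mice were wild-type C57BL6/J females without a transgene. NP mice were virgin nulliparous animals, which the study matched for age. StressPP mice had been bred, carried a pregnancy to term and nursed a litter, and were kept on limited nesting material and parted from their pups for some hours of each day from 10 to 20 days postpartum (dpp), until weaning at 21 dpp. They therefore differed from NP mice in pregnancy, birth, lactation and pup contact as well as in stress, and these cannot be told apart in this comparison. The study collected tissue for its transcriptomes at 49 dpp, 4 weeks after weaning. Each library came from 1 mouse, from 4 punches of 2 mm. The batch labels place 2 NP and 1 StressPP mice in batch 1, and 2 mice of each of these groups in batch 2 and in batch 3. ControlPP mice came from batches 2 and 3 only, 2 in each, so their ranges hold no mouse of batch 1. Mice are numbered here within their group, and these numbers only name them.

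The hippocampal formation encodes context and space, and the dentate gyrus and fields CA1 to CA3 form its main excitatory circuit. It carries both corticosteroid receptors, through which stress hormones act on transcription, and receptors for oestrogens, prolactin and oxytocin, whose ligands change with reproduction. A punch through it takes in neighbouring tissue, such as cortex, thalamus, the habenula beneath the hippocampus, the choroid plexus and the meninges, and the sum over all barcodes contains these cells too. In such a sum, fewer cells of a type and less RNA per cell cannot be told apart.

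Between 5789 and 12738 barcodes were present in each of the 11 libraries, with 40602582 to 96211264 UMIs, and 24659 to 26462 genes had at least 1 UMI. Markers of dentate granule neurons were present in all of them, as were those of striatal, thalamic, habenular and cortical neurons. Pairs of libraries shared at most 0.461% of the barcodes of the smaller one. Two-sided exact permutation tests with labels permuted within batches, which allowed 108 arrangements and no p under 0.00926, found no measure of depth or RNA quality under 0.05 after Benjamini-Hochberg adjustment over 6 measures. A single measure could not have passed after this adjustment, so that the tests leave differences in depth or quality undecided. The lowest raw p was 0.0926, for total UMIs, at 63852900 ± 16929600 (SD) in NP and 76955600 ± 14661500 in StressPP mice, with an adjusted p of 0.556 (exact permutation). NP 2 and StressPP 2, both of batch 1, stood apart from the other 9 libraries along the first principal component, which carried 49.6% of the variance. Their scores were −103.48 and −87.7, against −19.967 to 51.752 in the others. They also had the fewest genes with a UMI and the highest mitochondrial shares, at 0.224% and 0.194% of UMIs. Results are therefore given with and without this pair where it matters.

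**Figure D1:**
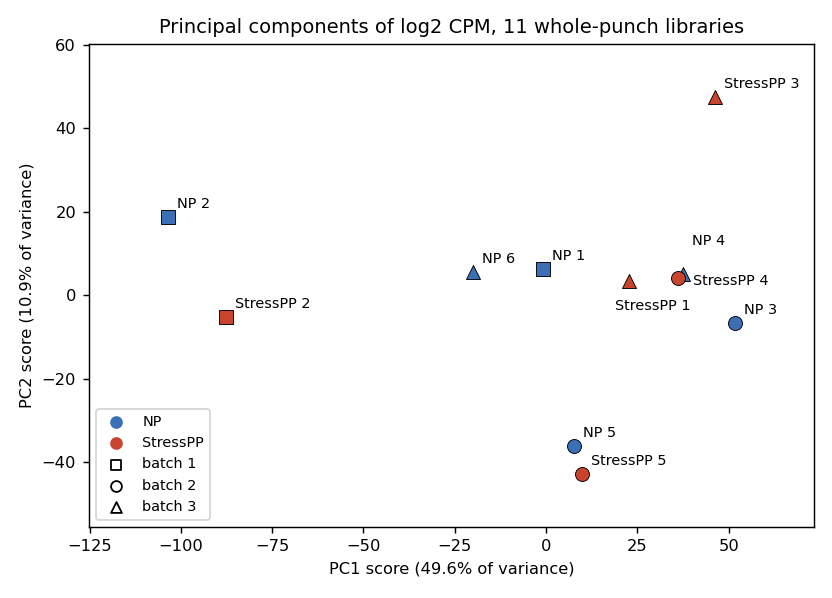
First and second principal component scores of the 11 libraries (log2 CPM of the genes tested), coloured by group, with the symbol giving the batch. NP 2 (−103.48) and StressPP 2 (−87.7) lie at the low end of the first component, and the other NP and StressPP libraries are mixed with each other.

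No gene differed between StressPP and NP mice at an adjusted p under 0.05 (edgeR quasi-likelihood test with batch as a term, Benjamini-Hochberg over 21905 genes, 0% called, lowest adjusted p 0.9997). By this test 882 genes had an unadjusted p under 0.05. Of these, 333 were higher in StressPP (1.52% of the genes tested) and 549 were lower (2.51%). Scaled by library totals in place of TMM, 117 were higher and 946 lower, with the median of all genes at −0.08. DESeq2 on the same sums called 14 genes, 13 lower and 1 higher in StressPP, with adjusted p between 0.000158 and 0.0498, and all 14 were among the 20 genes of smallest p in edgeR. Without NP 2 and StressPP 2, edgeR again called 0 genes, with 745 at an unadjusted p under 0.05.

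The fit also bounded how large differences could be. The median log2 fold change over all genes was −0.01 and its median standard error 0.16. Of all genes, 94.1% lay within 0.5 of 0 on the log2 scale, and for 17754 genes (81.1%) the 95% interval of the log2 fold change lay within 1 on either side of 0. For 89 genes the groups did not overlap, with every StressPP library below every NP library for 84 of them and above for 5 (0.406% of the genes tested). These ranges, and all levels in CPM below, are scaled by library totals without TMM. With that scaling more genes were lower, as given above, so the counts of genes apart contain this shift. The share that shuffled labels would give was not computed. Without NP 2 and StressPP 2, with fewer libraries to separate, these numbers were 254 below and 16 above.

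**Figure D2:**
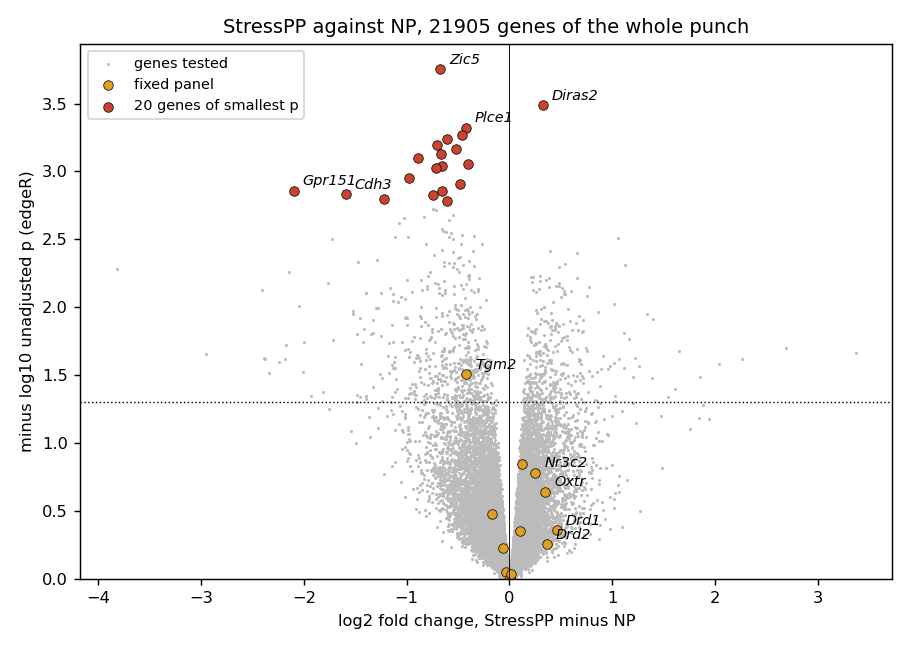
Each point is a gene, placed by its log2 fold change (StressPP minus NP) and by minus log10 of its unadjusted p from edgeR; the dotted line marks an unadjusted p of 0.05. The 20 genes of smallest p are in red, 19 of them on the lower side, and the 12 genes of the fixed panel are in yellow; none passed an adjusted p of 0.05.

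The 20 genes of smallest p had an unadjusted p between 0.000177 and 0.00166 and all an adjusted p of 0.9997 by edgeR. Part of their UMIs lay in barcodes with markers of cells other than hippocampal neurons. Barcodes that held at least 50% of the genes of a cell type marker list (referred to below as barcodes of that list, and defined by the levels of the same genes) contained over 3 times the share of a gene's UMIs that they had of all UMIs for 14 of the 20 genes with the choroid plexus list, for 12 each with the astrocyte and leptomeningeal lists, and for 10 each with the habenular and endothelial lists. This count was not made over all genes tested, so whether these numbers are unusual is not known. A barcode could belong to several lists. A gene could also pass with a small part of its UMIs, as Zic5 did with 5.01% in choroid plexus barcodes. In StressPP, 19 of the 20 genes were lower and 1 was higher, and among the 100 genes of smallest p 79 were lower. The mean of the ControlPP mice was also below the NP mean for all 19 lower genes, with the same NP mice in both comparisons. All 20 had the same sign in each of the 3 batches, which held for 24.7% of all genes. Selection by a small p in this fit favours such genes, so this is no replication across batches. For 9 of the 20 the groups did not overlap. Leaving out the barcodes that held at least 3 genes of a list of cells outside the dHF, which were 49.7 to 70.5% of the barcodes of a library, kept the sign of all 19 genes that could be tested, and the median ratio to the value with all barcodes was 0.61. This is called the 3-gene limit below. It left out 54.3 to 70.5% of the barcodes of NP and 49.7 to 61.8% of those of StressPP libraries. Members of the lists it uses, such as Col1a1 and Drd2, help to define the barcodes left out, so for them it is no independent check. These genes were chosen by their p in this fit, so the values above and below describe them and do not add support.

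The gene of smallest p was Zic5, a zinc finger transcription factor of the Zic family, whose members act in the dorsal neural tube, thalamus and meninges (GRCm38, chromosome 14, 122456795 to 122465677, minus strand). Its level in NP was between 3.66 and 4.90 CPM, the usual scaling of a gene's UMIs to a fixed library total,, with a median of 4.29. StressPP mice 1 to 5 had 2.79, 2.14, 2.92, 2.58 and 2.41 CPM, all under the lowest NP mouse. The 4 ControlPP mice lay between 2.10 and 2.16 CPM. The log2 fold change of StressPP over NP was −0.67 ± 0.12 (SE; 95% interval −0.93 to −0.41), and it was −0.98, −0.61 and −0.52 within batches 1, 2 and 3. Without NP 2 and StressPP 2 it was −0.57, and it was −0.41 under the 3-gene limit. The counts behind it were low, at 121 to 318 UMIs per library, and on average 3.02% of NP and 1.98% of StressPP barcodes held a UMI of Zic5, or 0.560% and 0.319% when every barcode was thinned to 1000 UMIs.

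Gm5089, a predicted gene with no assigned function, was also among the 20. It is a neighbour of Zic5, 5679 bases away on the same strand, and whether reads of one locus were counted for the other was not tested. Its level was 4.61 to 7.41 CPM in NP, with a median of 5.62, and 3.27 to 3.79 CPM in StressPP, so that the groups did not overlap. Its log2 fold change was −0.67 ± 0.14, but −0.26 under the 3-gene limit and −0.42 without barcodes holding at least 50% of a list of cells outside the dHF. Barcodes of the astrocyte list contained 43.9% of its UMIs.

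After these values were seen, other genes of the Zic family were looked up, so their values are a description. Zic4 had 12.0 to 23.5 CPM in NP, 7.30 to 13.4 CPM in StressPP and 6.22 to 8.81 CPM in ControlPP, with a log2 fold change of −0.75 ± 0.18. Zic2 had −0.49 ± 0.18 and Zic1, a thalamic marker, −0.62 ± 0.24, or −0.39 without NP 5. NP and StressPP ranges overlapped for Zic4, Zic2 and Zic1.

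Diras2, a small GTPase of the Ras superfamily found in neurons, was the 1 gene of the 20 that was higher in StressPP (chromosome 13, 52504380 to 52531279, minus strand). NP libraries had 34.2 to 46.3 CPM, with a median of 40.3. StressPP mice 1 to 5 had 45.3, 54.1, 53.0, 42.9 and 40.8 CPM, and the ranges overlapped. ControlPP mice had 37.5 to 48.1 CPM. The log2 fold change was 0.33 ± 0.06, and 0.49, 0.26 and 0.28 within batches 1 to 3, and 0.21 under the 3-gene limit. Barcodes of the dentate granule neuron list contained 53.8% of the Diras2 UMIs and 38.6% of all UMIs.

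Several of the genes lower in StressPP had many UMIs in barcodes of the astrocyte list, and Etnppl had the largest share. Etnppl, the ethanolamine-phosphate phospho-lyase of astrocytes, had 8.39 to 13.5 CPM in NP, with a median of 10.1, and 6.92, 3.75, 8.47, 3.37 and 6.604 CPM in StressPP mice 1 to 5. The lowest NP and the highest StressPP mouse overlapped narrowly, and ControlPP mice spread from 5.43 to 13.2 CPM. The log2 fold change was −0.89 ± 0.19, and −1.07, −0.99 and −0.75 within batches. Of its UMIs, 85.3% lay in barcodes of the astrocyte list, which contained 5.04% of all UMIs. Within those barcodes its level was 167 ± 38.3 CPM (SD) in NP and 110 ± 24.4 CPM in StressPP, with ranges of 126 to 226 and 73.05 to 139 CPM.

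Plce1, phospholipase C epsilon, had 28.8 to 33.1 CPM in NP and 18.8, 22.5, 25.8, 20.1 and 21.6 CPM in StressPP mice 1 to 5. Psd2, an exchange factor for ARF GTPases, had 26.8 to 34.1 CPM in NP and 18.9, 19.8, 22.6, 22.1 and 21.2 CPM in StressPP mice 1 to 5. Both pairs of ranges were apart. ControlPP mice had 17.8 to 35.7 CPM for Plce1 and 16.1 to 30.8 CPM for Psd2, and thus overlapped with NP at their high end. Their medians were 20.2 and 20.6 CPM, beside 21.6 and 21.2 CPM in StressPP. Log2 fold changes of StressPP over NP were −0.42 ± 0.08 for Plce1 and −0.46 ± 0.09 for Psd2. Under the 3-gene limit they were −0.09 and −0.13. Barcodes of the astrocyte list contained 42.9% of the Plce1 and 43.3% of the Psd2 UMIs. Within them, Plce1 had 252 ± 45.9 CPM in NP and 198 ± 35.3 CPM in StressPP, and Psd2 had 242 ± 33.9 and 201 ± 23.2 CPM.

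Acacb, the mitochondrial acetyl-CoA carboxylase that restrains fatty acid oxidation, had a log2 fold change of −0.71 ± 0.16 and Cpq, a secreted carboxypeptidase, one of −0.40 ± 0.09, which was −0.25 under the 3-gene limit. Their UMIs were spread over astrocyte and choroid plexus barcodes, at 30.4% and 26.8% for Acacb and 33.4% and 7.86% for Cpq. The ranges were apart for Cpq, at 37.9 to 47.5 CPM in NP and 25.1 to 36.4 CPM in StressPP.

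The largest fold changes among the 20 were in 3 genes with many UMIs in habenular barcodes. Gpr151, an orphan receptor of habenular neurons, had 0.395 to 2.67 CPM in NP, with a median of 1.52, and 0.863, 0.354, 0.246, 0.238 and 0.120 CPM in StressPP mice 1 to 5. The ranges overlapped, since NP 3, at 0.395 CPM, was below StressPP 1. ControlPP mice lay between 0.0626 and 0.722 CPM. The log2 fold change was −2.10 ± 0.49 (95% interval −3.18 to −1.02), from 10 to 185 UMIs per library. Gpr151 had −1.80 under the 3-gene limit and −1.89 without barcodes holding at least 50% of a list of cells outside the dHF. Barcodes of the habenular list contained 38.0% of its UMIs and 1.47% of all UMIs. In them its level was 30.4 ± 11.1 CPM in NP and 28.7 ± 24.2 CPM in StressPP, where it ran from 0 to 54.1 CPM by mouse. Summed over mice there were 741 such barcodes in NP and 123 in StressPP, unevenly spread over the mice, whose shares are given below. These values do not tell fewer cells from less RNA per cell. Cdh3, P-cadherin, had 0.982 to 2.64 CPM in NP and 0.168 to 0.935 CPM in StressPP without overlap, and a log2 fold change of −1.59 ± 0.37. Its UMIs were found in choroid plexus (47.2%) and habenular (28.9%) barcodes. Gm13373, a predicted gene with 34.1% of its UMIs in habenular barcodes, had −1.22 ± 0.29. It had −0.53 when barcodes holding at least 50% of a list of cells outside the dHF were left out, and −0.04 under the 3-gene limit.

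The other 9 genes of the 20 had UMIs in barcodes of several lists, among them those of vessels, meninges, choroid plexus, astrocytes and habenula. Dab2, an endocytic adaptor of macrophages and barrier cells, had 12.2 to 15.9 CPM in NP and 8.82, 8.09, 10.1, 7.59 and 9.91 CPM in StressPP mice 1 to 5, without overlap. Its log2 fold change was −0.61 ± 0.13. Cp, ceruloplasmin, the copper-carrying ferroxidase, had 12.3 to 17.4 CPM in NP and 8.57 to 11.6 CPM in StressPP (−0.48 ± 0.11, but −0.27 under the 3-gene limit). Shroom3, which organizes actin at the apical side of epithelia, had 29.2 to 44.9 CPM and 18.7 to 25.5 CPM (−0.52 ± 0.11, but −0.17 under the 3-gene limit). The groups did not overlap for any of these 3 genes.

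For the remaining 6 the ranges overlapped. Bmp7, a bone morphogenetic protein of the meninges and choroid plexus, had a log2 fold change of −0.66 ± 0.14, and barcodes of the leptomeningeal list contained 13.0% of its UMIs against 0.269% of all UMIs. Epas1, the hypoxia-inducible factor of endothelium and astrocytes, had −0.61 ± 0.14. Col18a1, a basement membrane collagen, had −0.74 ± 0.17, and Pear1, a receptor of endothelium and leptomeninges, −0.65 ± 0.15. With a covariate made from the summed levels of the marker lists, described below, Col18a1 had −0.42. The protease inhibitor A2m had −0.71 ± 0.15 and Kctd12b, a gene of the family of GABA-B receptor auxiliary subunits, −0.97 ± 0.22. Within batches 1 to 3 Epas1 had −0.87, −0.14 and −0.91. Under the 3-gene limit Epas1 had −0.20, Kctd12b −0.49, Bmp7 −0.40 and Pear1 −0.39. Barcodes of the astrocyte list contained 36.2% of the A2m, 32.9% of the Epas1 and 30.1% of the Kctd12b UMIs, and those of the habenular list 14.8% of the Kctd12b, 9.09% of the Col18a1, 8.71% of the Shroom3 and 7.82% of the Bmp7 UMIs. Choroid plexus barcodes contained 27.5% of the A2m UMIs, beside 0.911% of all UMIs. Endothelial barcodes contained 20.3% of the Epas1 UMIs, beside 0.417% of all UMIs.

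**Figure D3:**
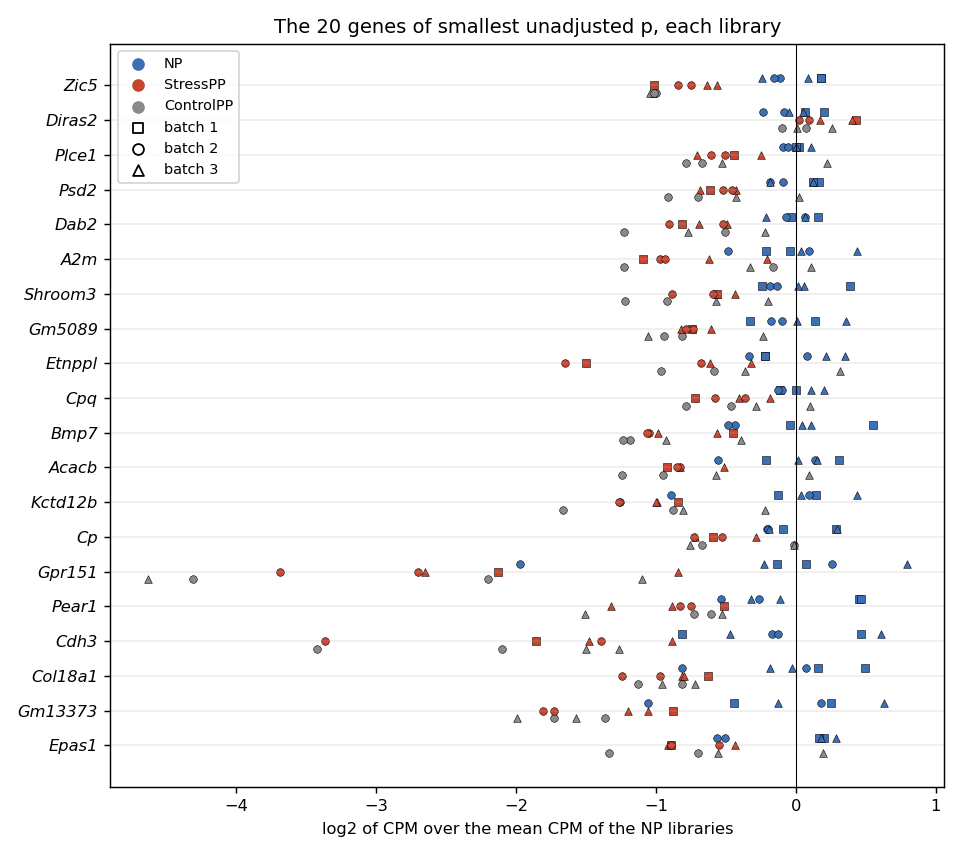
Log2 of each library's CPM over the NP mean, for the 20 genes of smallest unadjusted p; each symbol is a mouse, coloured by group, and the symbol gives the batch. The groups are apart for 9 genes, such as Zic5 and Plce1, and overlap for the others, such as Gpr151 and Diras2; ControlPP mice (grey) lie with StressPP mice for Zic5, where they had 2.10 to 2.16 CPM, and spread widely for Etnppl, from 5.43 to 13.2 CPM.

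Marker lists of 24 cell types and 22 function lists were described by their medians. Of their members, edgeR called 0, and DESeq2 called the collagen gene Col18a1 (adjusted p 0.0498). These medians rested on few mice. When 1 mouse at a time was left out, the medians of 21 of the 46 lists crossed 0, and all of the other 25 moved by over 1.5 times. Counts and medians below therefore describe these 11 mice. Over all genes tested, 53.4% had a log2 fold change below 0 and 46.6% above 0. At an unadjusted p under 0.05, 2.51% were lower and 1.52% higher.

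Habenular neurons had the lowest median of any list. Of its 8 members, 0 were called, 7 had an unadjusted p under 0.05 and a lower level in StressPP, and the median log2 fold change was −1.08, beside −0.01 over all genes. Gng8, a G protein gamma subunit of habenular neurons, had 1.06 to 3.80 CPM in NP, with a median of 2.64, and 1.36, 1.11, 1.64, 1.15 and 0.492 CPM in StressPP mice 1 to 5, and a log2 fold change of −1.08 ± 0.27. Barcodes of the oligodendrocyte list contained 41.4% of its UMIs (14.0% of all UMIs) and those of the habenular list 36.8%. The homeobox gene Irx2 had −1.05 ± 0.37. With the first principal component of the summed levels of the marker lists as a covariate (the composition covariate), Gng8 had −0.57 and Irx2 turned to 0.095, and under the 3-gene limit Gng8 had −0.24. This covariate is built from the marker genes themselves, and its scores differed by group. They were −1.34 to −0.57 in NP mice except NP 3, at 1.30. In StressPP mice they were 0.60 to 1.40 except StressPP 2, at −0.069. Values with it are therefore no independent check on marker genes or lists. Without NP 5, Irx2 had −0.59. Among the other members, named after their values were seen, the transcription factor Pou4f1 had 3.98 CPM in NP and 1.05 CPM in StressPP on average, and Tac2, which encodes neurokinin B, had 3.94 and 0.868 CPM. Only Lmo3, which other neurons of the punch express too, lay on the other side, at 0.27.

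Habenular barcodes are defined by these same genes, so their number is no second measure of them. Barcodes holding at least 50% of the list made up 0.618, 1.48, 0.0990, 3.82, 2.39 and 1.09% of NP mice 1 to 6 and 0.643, 0.743, 0.0864, 0.118 and 0.0637% of StressPP mice 1 to 5. ControlPP mice had 0.0283 to 0.167%. The groups overlapped, with NP 1 and 3 and StressPP 1, 2 and 4 in the shared range, and NP 2, 4, 5 and 6 above all StressPP mice. The summed level of the 8 genes was 235.7 to 674.6 CPM in NP and 206.8 to 331.9 CPM in StressPP, of which Lmo3 made up 119 and 140 CPM on average, and none of the 8 was at 0 in all libraries. When barcodes that held at least 50% of a list of cells outside the dHF were left out, the median log2 fold change of the habenular list was −0.60. With the composition covariate it was −0.10. The habenular genes help to define those barcodes and enter that covariate, so neither value is an independent check. Leaving out 1 mouse at a time gave −1.40 to −0.70, the last without NP 5.

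Other lists of cells around the hippocampus also had medians below 0. All 12 thalamic excitatory neuron markers were lower in StressPP, with a median of −0.42, 0 called and 1, Zic1, at an unadjusted p under 0.05, but the median was −0.13 without StressPP 4. Beside these counts, 53.4% of all genes were below 0 and 2.51% were lower at that p. All 9 endothelial markers were lower, with a median of −0.56 and 1 at that p, Pecam1, an endothelial adhesion molecule (−0.58 ± 0.19), and the median was −0.30 without StressPP 2 and turned to 0.25 with the composition covariate. Pecam1 had −0.11 with the composition covariate and −0.16 under the 3-gene limit. Of the 9 vascular leptomeningeal markers 8 were lower, with a median of −0.47, which was −0.28 without StressPP 1, and 3 at that p, among them the fibrillar collagen gene Col1a1 (−0.50 ± 0.19) and Pdgfra (−0.27 ± 0.11), which oligodendrocyte precursors also express. Under the 3-gene limit, which uses this list to leave out barcodes, Col1a1 had −0.02. Of the 10 choroid plexus markers 9 were lower, with a median of −0.32, which turned to 0.04 without NP 3, and 1 at that p, the homeobox gene Otx2 (−0.47 ± 0.16), whereas Ttr, transthyretin, the most abundant secreted product of this epithelium, had 0.37 with an unadjusted p of 0.69 by edgeR. The summed level of the choroid plexus list was 2007 to 2462 CPM in NP and 1446 to 2011 CPM in StressPP, and Trpm3, which neurons also express, contributed most of it at 1475 to 2209 CPM in NP and 1065 to 1632 CPM in StressPP. None of the members of these lists was at 0 in all libraries.

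Astrocyte markers were all lower in StressPP, 10 of 10, with a median of −0.22 and 4 at an unadjusted p under 0.05. Of all genes, 53.4% were below 0 and 2.51% were lower at that p. Under the 3-gene limit the median turned to 0.06. Aqp4, the water channel of astrocyte endfeet, had 13.4 to 22.7 CPM in NP, with a median of 16.7, and 12.4, 7.63, 15.1, 11.4 and 14.5 CPM in StressPP mice 1 to 5. Its log2 fold change was −0.49 ± 0.17, but only −0.05 within batch 2. Agt, which encodes angiotensinogen, had −0.62 ± 0.21. With the composition covariate Aqp4 had −0.27 and Agt −0.05, and under the 3-gene limit they had −0.18 and −0.31. The glutamate transporter Slc1a2, the most abundant of the list, had −0.08 and an unadjusted p of 0.39 by edgeR. Astrocyte barcodes made up 4.76 to 9.66% of NP and 4.49 to 8.27% of StressPP libraries. The summed level of the list was 780.3 to 964.5 CPM and 646.6 to 858.8 CPM.

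The other glial and immune lists had smaller medians or no gene at that p. Microglia had −0.16, which was 0.004 without StressPP 2, with 2 of 10 lower at that p, the signalling genes Dock8 (−0.22 ± 0.09) and Inpp5d (−0.26 ± 0.11). Under the 3-gene limit Dock8 had −0.099 and Inpp5d −0.14. Oligodendrocyte precursors had −0.13, with 2 of 8 lower, Pdgfra and the sialidase gene Neu4 (−0.37 ± 0.13). Oligodendrocytes had 0.03, ependymal cells −0.15, pericytes and smooth muscle −0.22, and border macrophages and blood leukocytes −0.49, each with 0 at that p. Without StressPP 2 the last 3 of these medians were 0.06, −0.08 and −0.17, and without StressPP 4 that of oligodendrocytes was −0.15. The neuronal lists outside the main hippocampal fields were Gata3 and Pax3 GABAergic neurons (−0.47, with Otx2, which the choroid plexus list also holds, at that p), Cajal-Retzius neurons (−0.16), neuroblasts and progenitors (0.30) and cortical layer neurons (0.04, with Hs3st4 higher at that p, at 0.40 ± 0.14). Without NP 5 the first of these was −0.15 and Cajal-Retzius neurons turned to 0.06, and without StressPP 3 neuroblasts had 0.16 and cortical neurons turned to −0.095.

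Hippocampal neuron lists lay near or above 0. The 8 dentate granule markers, such as Prox1, had a median of −0.01, with values between −0.10 and 0.09, and 0 at an unadjusted p under 0.05. All 7 CA1 markers were higher in StressPP, with a median of 0.36 (0.21 without NP 5 and 0.54 without NP 4) and 2 at that p. Mpped1 had 21.02 to 50.2 CPM in NP, with a median of 30.1, and 24.7, 71.9, 21.9, 63.6 and 36.97 CPM in StressPP mice 1 to 5. Its log2 fold change was 0.51 ± 0.21, and 0.88, 0.89 and −0.12 within batches 1 to 3. CA1 barcodes made up 1.22 to 4.12% of NP and 0.793 to 8.10% of StressPP libraries. CA3, CA2, mossy cell and subiculum markers had medians of 0.13, 0.03, 0.05 and 0.06, with 1 of all these at that p, the mossy cell marker Ociad2 (0.18 ± 0.08).

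Of the 12 interneuron markers, 9 were higher in StressPP, with a median of 0.27 and 2 at an unadjusted p under 0.05. Both were peptides. Sst, somatostatin, had 2.16 to 10.4 CPM in NP, with a median of 4.36, and 6.15, 14.3, 17.7, 11.7 and 1.38 CPM in StressPP mice 1 to 5. The groups overlapped, with StressPP 1 inside the NP range and StressPP 5 at the lowest level of all 11 mice. The log2 fold change was 1.34 ± 0.44, but 0.80 without StressPP 4 and 0.79 with voom. Within batches the differences of mean log2 CPM were 0.98, 0.89 and 1.28. These are computed otherwise than the fitted value and need not lie around it. Npy, neuropeptide Y, had 0.88 ± 0.37, with StressPP 5 again lowest, and 0.54 without StressPP 4. Cort, cortistatin, a peptide related to somatostatin, had 0.301 to 1.17 CPM in NP and 0.800, 1.45, 1.46, 1.20 and 0.300 CPM in StressPP mice 1 to 5 (1.13 ± 0.32). The general GABAergic marker Gad1 had 0.18, with an unadjusted p of 0.16 by edgeR. Over all 18 neuropeptide genes, 15 were higher, with a median of 0.37, 4 higher and 2 lower at that p, and without StressPP 3 the medians of the neuropeptide and interneuron lists were 0.14 and 0.12. Besides the 3 named, the higher ones included Chgb (0.34 ± 0.14), and the lower ones were Tac2 and Adcyap1 (−0.91 ± 0.38), and these 3 were named after their values were seen. Barcodes of the interneuron list made up 1.67 to 3.85% of NP and 1.88 to 4.78% of StressPP libraries.

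**Figure D4:**
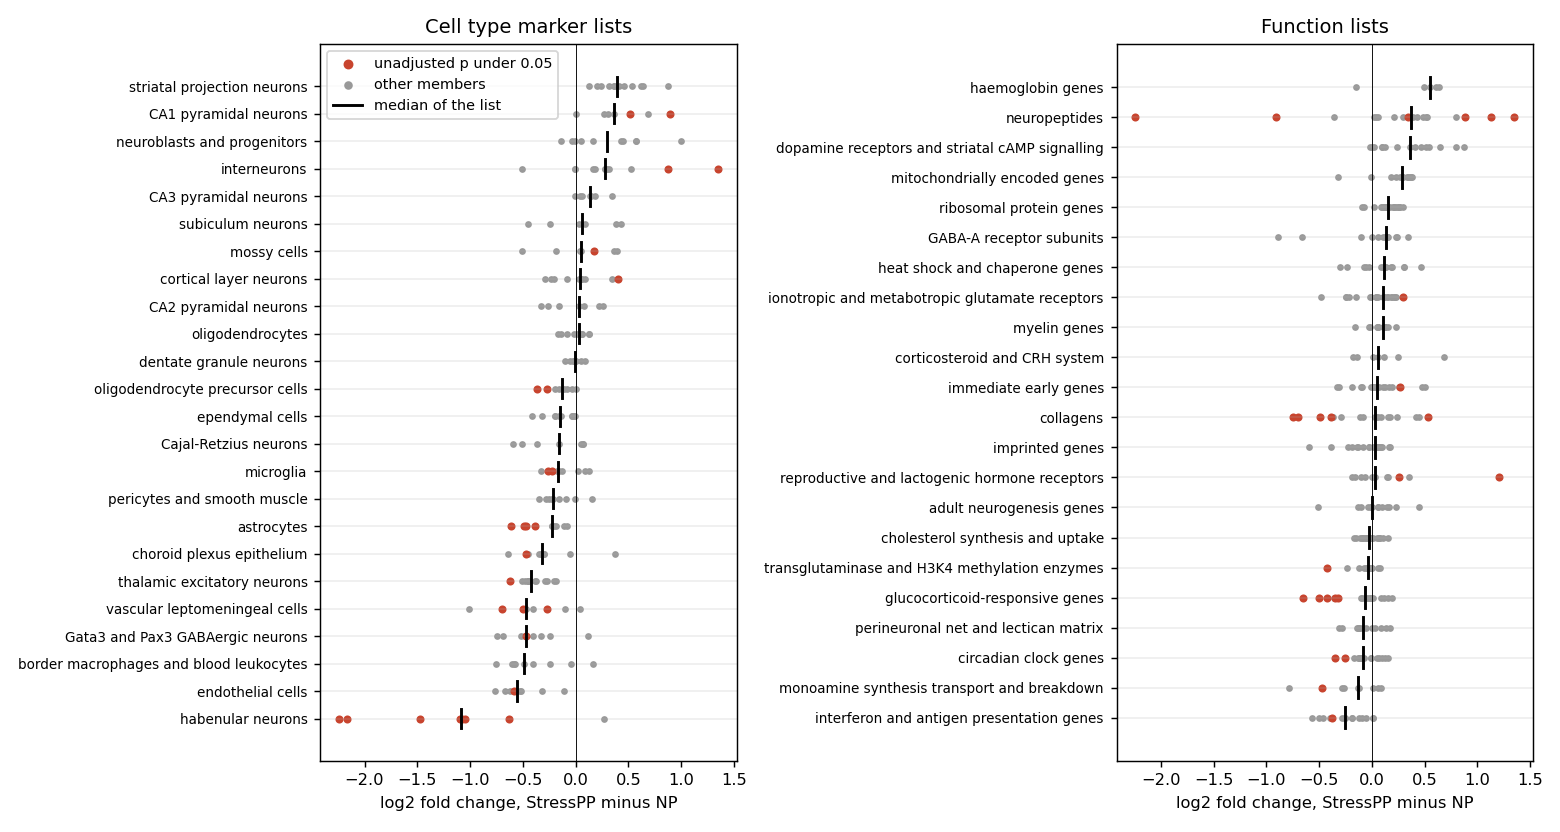
Log2 fold change (StressPP minus NP) of every member tested of 24 cell type marker lists (left) and 22 function lists (right), sorted by the median of the list (black bar); members with an unadjusted p under 0.05 are red. Habenular markers lie lowest, with a median of −1.08, and haemoglobin genes highest, with a median of 0.55, which was 0.09 without StressPP 4, and no member under that p.

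Dopamine receptors were on the fixed panel because the study follows dopamine in the dHF. Drd1 had 2.34 to 10.5 CPM in NP, with a median of 3.12, and 3.74, 2.50, 18.5, 9.11 and 1.90 CPM in StressPP mice 1 to 5. Drd2 had 3.47 to 26.2 CPM in NP, with a median of 6.90, and 7.15, 5.20, 34.6, 18.8 and 4.36 CPM in StressPP mice 1 to 5. In both groups a few mice were high, NP 3 among the NP mice and StressPP 3 and 4 among the others, and the rest overlapped. The log2 fold changes were 0.46 ± 0.58 for Drd1 (95% interval −0.82 to 1.74) and 0.36 ± 0.60 for Drd2 (−0.96 to 1.68). Both intervals run past 1, so the fit does not exclude even a large difference upwards. Without StressPP 3 the log2 fold changes were −0.09 and −0.19, and without NP 3 they were 0.98 and 0.84.

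Barcodes of the striatal projection neuron list contained 54.7% of the Drd1 and 65.0% of the Drd2 UMIs, and 4.97% of all UMIs, but both receptors are on that list. These barcodes made up 0.281 to 6.29% of NP and 0.382 to 9.67% of StressPP libraries, with NP 3 and StressPP 3 the highest of their groups. All 12 markers of the list had a positive log2 fold change, with a median of 0.39 and 0 at an unadjusted p under 0.05, and the median was 1.03 without NP 3 and −0.15 without StressPP 3. Of the 15 tested genes of dopamine receptors and striatal cAMP signalling, 13 were positive, also with 0 at that p. Maob, the monoamine oxidase that breaks down dopamine in astrocytes, had 7.75 to 11.1 CPM in NP, with a median of 9.82, and 7.42, 4.25, 9.06, 6.51 and 7.71 CPM in StressPP mice 1 to 5 (−0.47 ± 0.12, unadjusted p of 0.00341 by edgeR). It was lower in each batch, at −0.79, −0.31 and −0.42, and had −0.24 under the 3-gene limit. It was the 1 of 9 tested genes of monoamine synthesis, transport and breakdown at an unadjusted p under 0.05, and the median of that list was −0.13. Maoa had −0.12.

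Tgm2, the transglutaminase that couples monoamines to histone H3, had 1.31 to 2.02 CPM in NP, with a median of 1.82, and 1.10, 0.956, 1.42, 1.69 and 1.24 CPM in StressPP mice 1 to 5. It was the 1 gene of the 12 in the panel with an unadjusted p under 0.05 (p of 0.0311 by edgeR, log2 fold change −0.42 ± 0.17). Under the 3-gene limit it had −0.14. Batch 2 contributed little, at −0.09, beside −0.68 and −0.56 in batches 1 and 3. Barcodes of the endothelial list contained 20.5% of its UMIs and 0.417% of all UMIs, and endothelial markers were lower as given above; their part in the result was not tested. Of the 13 other enzymes on the list, which write, erase or hold methylation of histone H3 at lysine 4, 0 had an unadjusted p under 0.05, and the median of the whole list was −0.03.

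Corticosteroid receptors did not pass the test. Nr3c1, the glucocorticoid receptor, had 134 to 160 CPM in NP and 129 to 166 CPM in StressPP, with a log2 fold change of 0.12 ± 0.07 and a 95% interval of −0.05 to 0.28. Nr3c2, the mineralocorticoid receptor, which is abundant in hippocampal neurons, had 0.25 ± 0.17 (−0.12 to 0.63), and −0.17 within batch 3. Without NP 2 and StressPP 2 it had 0.12, and 0.10 under the 3-gene limit. The CRH receptor Crhr1 had 0.01 ± 0.14. Of 19 tested genes that respond to glucocorticoids in many tissues, 14 were lower in StressPP, with a median of −0.06, 0 called and 5 at an unadjusted p under 0.05, all of them lower. Over all genes 53.4% were below 0 and 2.51% were lower at that p. The 5 include Tgm2 and Per1, which are also counted among the H3K4 methylation enzymes and the clock genes. Tsc22d3, the leucine zipper gene GILZ, had 22.7 to 35.4 CPM in NP, with a median of 25.4, and 17.3, 19.2, 26.1, 22.7 and 14.8 CPM in StressPP mice 1 to 5 (−0.32 ± 0.13). Under the 3-gene limit Tsc22d3 had −0.19. Plin4, a lipid droplet protein, had −0.66 ± 0.24, but −0.39 without NP 4, and the clock gene Per1 −0.35 ± 0.15, but −0.22 without StressPP 2. The median of the list was −0.21 without StressPP 3. Barcodes of the oligodendrocyte list contained 72.1% of the Tsc22d3 and 55.2% of the Plin4 UMIs, and 14.0% of all UMIs. Fkbp5, the co-chaperone that restrains the glucocorticoid receptor, had −0.06 ± 0.11 (95% interval −0.31 to 0.19) and Zbtb16 −0.03 ± 0.22. NP 2 was the highest NP mouse for both Per1 and Tsc22d3.

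Of 16 clock genes, 11 were lower, with a median of −0.09 and 2 at an unadjusted p under 0.05. Per2 had 26.1 to 38.0 CPM in NP, with a median of 28.6, and 21.1, 24.6, 23.8, 23.0 and 25.5 CPM in StressPP mice 1 to 5, without overlap. ControlPP mice had 22.1 to 25.2 CPM. Its log2 fold change was −0.26 ± 0.10. The time of day at which each mouse was killed was not used here.

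Receptors for reproductive and lactogenic hormones were mostly near 0, with a median of 0.03 over 11 tested genes and 2 at an unadjusted p under 0.05, both higher in StressPP. Avpr1b, a vasopressin receptor of CA2, had 1.20 ± 0.49 but only 1 to 14 UMIs in an NP and 9 to 36 UMIs in a StressPP library. The oestrogen receptor Esr1 had 0.00 ± 0.19, the prolactin receptor Prlr −0.16 ± 0.16 and the oxytocin receptor Oxtr 0.35 ± 0.27, the last from 15 to 35 UMIs per library. Leaving out 1 mouse at a time gave −0.29 to −0.05 for Prlr and 0.14 to 0.50 for Oxtr. For Prlr, barcodes of the choroid plexus list contained 29.7% of the UMIs and 0.911% of all UMIs. Bdnf, the neurotrophin, had 0.10 ± 0.13.

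In the remaining function lists edgeR called 0 genes, and the DESeq2 call of Col18a1 among the collagens is given above. The immediate early genes had a median of 0.05, with 1 of 20 at an unadjusted p under 0.05, Homer1 (0.26 ± 0.12). Glutamate receptors had a median of 0.11, with 1 of 22 at that p, the metabotropic receptor gene Grm5 (0.29 ± 0.13), and the GABA-A receptor subunits 0.13, with 0 of 14. Without StressPP 2 the medians of the glutamate and GABA-A receptors were 0.02 and 0.04. Grm5 had 0.17 without StressPP 2 and 0.06 under the 3-gene limit, and Homer1 had 0.05 with the composition covariate. Of the 15 genes of interferon response and antigen presentation 13 were lower, with a median of −0.26 and 1 at that p, Irf9 (−0.38 ± 0.16). Without StressPP 2 the median was −0.08 and Irf9 had −0.18. Of 20 collagens 4 were lower and 1 higher at that p. The higher one was Col19a1 (0.53 ± 0.19). Myelin genes (median 0.10), cholesterol synthesis genes (−0.03), adult neurogenesis genes (−0.002) and imprinted genes (0.03) had 0 at that p, and so did mitochondrially encoded genes (0.29), ribosomal protein genes (0.15), haemoglobin genes (0.55), heat shock genes (0.11), genes of the perineuronal net (−0.08) and the corticosteroid and CRH genes (0.05). Without StressPP 4 the mitochondrially encoded genes had 0.15, the ribosomal protein genes 0.01, the haemoglobin genes 0.09 and the heat shock genes 0.02, and the myelin genes turned to −0.16.

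**Figure D5:**
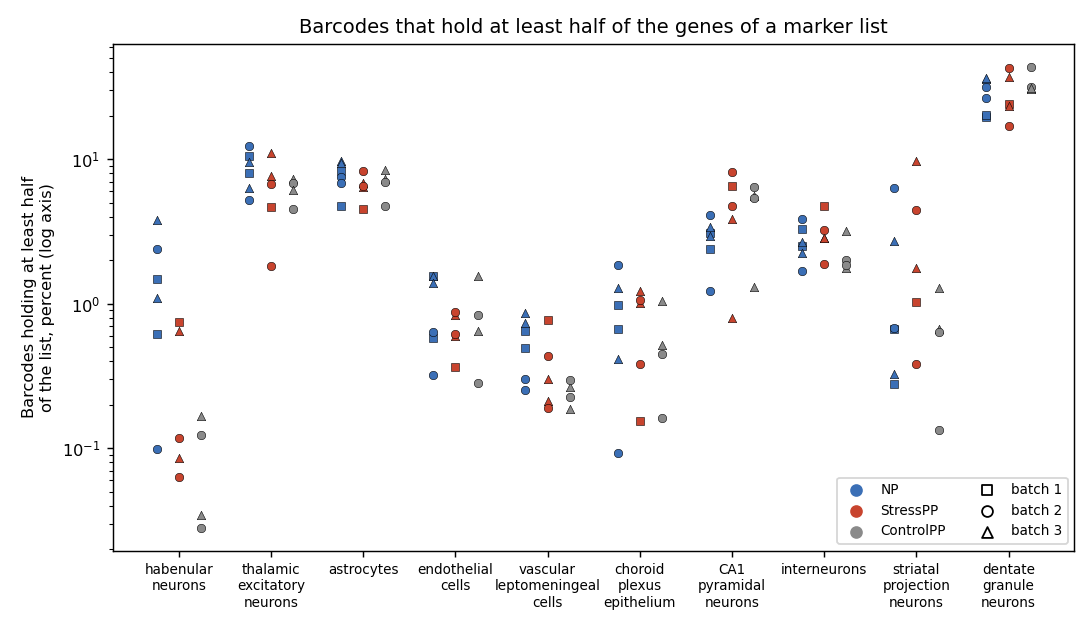
Percent of the barcodes of each library that hold at least 50% of the genes of a marker list (log axis), for 10 lists, by group, with the symbol giving the batch. Habenular barcodes run from 0.0990 to 3.82% in NP and from 0.0637 to 0.743% in StressPP, and these ranges overlap, as do those of dentate granule, astrocyte and interneuron barcodes.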

How the data were processed

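For each mouse the authors deposited UMI counts per barcode for 32285 genes; per the labels and methods these were made with Cell Ranger (7.1.0; 7.0.0 in the file headers) against mm10 (GRCm38) from 10x 3′ libraries of nuclei and limited to the barcodes it called as nuclei. These are raw values from which neither ambient RNA nor doublets were removed, and whether intronic reads were counted is not given in the sources used here. Counts were summed over all barcodes of a library. Genes kept by filterByExpr were tested with edgeR 4.0.16 (R 4.3.3; TMM scaling, quasi-likelihood fit, batch and group as terms), called at a Benjamini-Hochberg adjusted p under 0.05, and tested on simulated data first. DESeq2 1.42.0, limma 3.58.1 (voom), other scalings and filters, and leaving out libraries or barcodes were alternatives. Values within batches are differences of mean log2 CPM with TMM scaling and a small added count, not values of the fit. Replicates are separate mice. Depth was 40602582 to 96211264 UMIs per library.

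The members and gene lists were chosen with earlier results of these data known. Named are the 20 genes of smallest p, as 0 were called, a panel of 12 genes, and the 2 members of smallest p of each of 46 lists. Other genes are marked where they are given, except Ttr, Slc1a2, Gad1 and Maoa, which were picked from their lists outside this rule. Barcodes holding at least 50% of the genes of a marker list are a range of a score, not a cell type, and that limit was chosen after the data were seen, because the planned limit, at least 3 genes of a list of cells outside the dHF, took in 49.7 to 70.5% of the barcodes of a library. Gene positions are from GENCODE for GRCm38. Results for some genes are not reported here.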

Additional observations from a re-analysis of the deposited data

Results flagged for a closer look

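Of 376 sets of 5 or 6 mice examined, 33 (8.78%) held 1 mouse far from the rest of its group by Dixon's test at the 95% level, in each case at the high end. Chance alone gives about 1 in 20 groups, and the sets are not independent of each other, since many share a mouse.

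NP 2, the library with the highest mitochondrial share (0.224% of UMIs), stood out with 160.3 CPM of mt-Nd2, 149.9 CPM of mt-Nd4, 2243 CPM over the mitochondrially encoded genes, 38.3 CPM of Per1, 35.4 CPM of Tsc22d3, 6.28 CPM of Bag3 and 1386 CPM over the transglutaminase and H3K4 methylation enzymes. NP 3 stood out with 10.5 CPM of Drd1, 26.2 CPM of Drd2, 17.7 CPM of Penk, 164 CPM of Homer1 and 146 CPM over the mossy cell list. NP 1 stood out with 3.25 CPM of Hba-a2, 1.49 CPM of Hbb-bt, 11.9 CPM of Otx2, 9.05 CPM of Fezf2, 17.4 CPM of Rxfp1 and 581 CPM over the subiculum list.

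StressPP 2 stood out with 17.6 CPM of Crhr1, 2.16 CPM of Lhx5, 844 CPM over the glucocorticoid-responsive genes, 9308 CPM over the imprinted genes and 603 CPM over the subiculum list. StressPP 3 had 3.14 CPM of Acacb and 100.3 CPM over the interferon and antigen presentation genes. StressPP 4 had 39.0 CPM of Egr1, 1018 CPM of Hs3st4 and 3.25% of barcodes of the oligodendrocyte precursor list. StressPP 5 had 70.9 CPM of Fkbp5, 7.397 CPM of F13a1, 4.20 CPM of Mrc1 and 0.191% of barcodes of the border macrophage list.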

How the results depend on the processing

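In edgeR and limma, 0 genes were called under 12 of the 13 alternatives and in all 11 fits that left out 1 mouse, where 640 to 1252 genes had an unadjusted p under 0.05; DESeq2 called 14. No paired analysis was possible because the replicate numbers only name a mouse. Signs turned as follows (log2 fold changes), also for genes that were not near 0 with all barcodes and libraries, such as Irx2 (−1.05), Lhx5 (−0.59), Ebf3 (−0.51), Calb2 (−0.51), Drd1 (0.46) and Dnah6 (−0.42). Without the batch term, Esr1 had −0.011 and Crhr1 −0.063. With batches 2 and 3 only, Esr1 had −0.11, Bdnf −0.0042, Crhr1 −0.033, Mobp 0.015, Chst9 −0.11 and Cfap43 0.078, and without NP 2 and StressPP 2 they had −0.12, −0.0063, −0.038, 0.0061, −0.11 and 0.072. With library totals, Esr1 had −0.060 and Crhr1 −0.048. With voom, Zbtb16 had 0.015. Without barcodes holding 3 genes of a list outside the dHF, Drd2 had −0.12, Esr1 −0.10, Crhr1 −0.012, Bag3 0.026, Atp13a5 0.19 and Pdgfrb 0.36, and Cdh3, Oxtr, Gabre and Avpr1b were not tested. With the composition covariate, Drd1 had −0.13, Drd2 −0.27, Calb2 0.0092, Grb10 0.13, Amigo2 0.17, Lhx5 0.70, Ebf3 0.88, Irx2 0.095 and Foxp1 −0.036. Without barcodes holding at least 50% of such a list, Dnah6 had 0.34. The difference in genes detected was −18.7 within batches and 148.9 ignoring them. Leaving out 1 mouse gave ranges that cross 0 for Drd1 (−0.094 to 0.98), Drd2 (−0.19 to 0.84), Fkbp5 (−0.15 to 0.0038), Zbtb16 (−0.24 to 0.12), Esr1 (−0.12 to 0.17), Bdnf (−0.0065 to 0.22), Crhr1 (−0.052 to 0.13), Mobp (−0.36 to 0.0061), Chst9 (−0.11 to 0.24), Cfap43 (−0.39 to 0.072), Dnah6 (−0.75 to 0.029), Ebf3 (−0.82 to 0.058), Mog (−0.030 to 0.24) and Ermn (−0.040 to 0.47). The causes were not tested. With library totals the median of all genes was −0.08 and 117 genes were higher and 946 lower at an unadjusted p under 0.05, beside 333 and 549 with TMM. Voom gave 2157 genes at that p, the 3-gene limit 274 and the composition covariate 401. Of the 46 list medians, 11 turned sign with the composition covariate, 10 under the 3-gene limit, 10 with library totals, 8 with voom, 7 without NP 2 and StressPP 2 and 21 in at least 1 fit that left out a mouse. With the composition covariate the Gata3 and Pax3 neurons had 0.84, Cajal-Retzius neurons 0.49 and striatal neurons −0.25.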
